A study of Mus musculus with 6 samples.

Results

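The genes described here are 30 genes of cholesterol and fatty acid synthesis that the sterol regulatory element-binding proteins (SREBP) are known to control, together with the genes of these proteins and of their escort and anchor proteins. They were chosen by symbol as members of this pathway, by a rule that uses no measured level, and all 30 were found in the deposited table of 53912 loci. RNA was sequenced from mammary epithelial cells of female *fat-1* and WT mice of the FVB strain, with 3 pooled samples of each genotype. The mice were 6 to 8 weeks old, and all of them had been kept for life on a modified AIN93G diet with 10% fat by weight from safflower oil, which provided 22% of energy. Mammals cannot turn *n*-6 into *n*-3 PUFA, and *fat-1*, a *Caenorhabditis elegans* desaturase gene active throughout the body of these mice, adds that step. WT mice lack it and serve as the *n*-6 PUFA controls. The comparison asks how lifelong *n*-3 PUFA exposure relates to RNA levels in these cells. Each sample held glands of 2 to 3 mice, the oestrous stage of the mice was not determined, and the cells were isolated by digestion of inguinal glands from which lymph nodes had been removed. No label says that the pools came from separate litters or isolation days, so *p*-values measure the spread between these 6 pools.

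SREBP are transcription factors that are made as precursors in the membrane of the endoplasmic reticulum. When sterols are scarce, the escort protein Scap carries the precursor to the Golgi, where proteases release the active part, and when sterols are abundant the Insig proteins hold Scap back. *Srebf2* is known chiefly for cholesterol synthesis and uptake and *Srebf1* for fatty acid and glycerolipid synthesis, and PUFA are known from liver to lower the RNA and the processing of *Srebf1*. The mammary epithelium uses the same pathway to make milk lipids in lactation, which these pubertal glands had not reached.

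Most of the genes that could be examined shared a promoter sequence feature. SREBP bind a sterol regulatory element and often act beside the factor NF-Y, whose box reads CCAAT. The choice of genes used no sequence, but the box is not independent of a choice of known SREBP targets. Promoter windows of 300 bases, from 250 bases before to 50 bases after the start site, were taken from RefSeq (build GRCm38.p6), which held 36 windows for 26 of the 30 genes, all but *Fdps*, *Fdft1*, *Sqle* and *Stard4*. These 5 stretches of the 250 bases before a start site are shown for the gene with the sterol element match (*Hmgcs1*), the gene with most NF-Y boxes (*Mvk*), a gene with an NF-Y box and an E-box (*Insig1*), the central enzyme of fatty acid synthesis (*Fasn*) and the gene whose counts were split between rows (*Dhcr7*). Each is written 5′ to 3′ on the strand of the gene. Capitals mark matches to the NF-Y box (CCAAT or, on the other strand, ATTGG), the E-box CACGTG and the sterol regulatory element TCACNCCAC.
*Hmgcs1*: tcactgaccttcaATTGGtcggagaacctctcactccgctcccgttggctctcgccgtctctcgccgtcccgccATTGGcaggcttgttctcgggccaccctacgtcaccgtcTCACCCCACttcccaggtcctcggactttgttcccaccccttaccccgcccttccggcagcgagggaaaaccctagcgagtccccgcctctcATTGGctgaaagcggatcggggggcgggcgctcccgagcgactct
*Mvk*: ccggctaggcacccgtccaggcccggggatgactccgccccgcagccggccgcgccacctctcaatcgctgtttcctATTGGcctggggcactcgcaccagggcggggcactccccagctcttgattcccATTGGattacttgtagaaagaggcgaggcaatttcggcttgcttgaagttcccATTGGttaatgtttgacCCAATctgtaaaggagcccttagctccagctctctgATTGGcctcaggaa
*Insig1*: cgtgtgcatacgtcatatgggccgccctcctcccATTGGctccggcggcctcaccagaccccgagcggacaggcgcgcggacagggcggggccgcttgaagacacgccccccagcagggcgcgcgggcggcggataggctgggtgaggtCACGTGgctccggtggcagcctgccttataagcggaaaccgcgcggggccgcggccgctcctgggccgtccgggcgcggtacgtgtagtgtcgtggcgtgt
*Fasn*: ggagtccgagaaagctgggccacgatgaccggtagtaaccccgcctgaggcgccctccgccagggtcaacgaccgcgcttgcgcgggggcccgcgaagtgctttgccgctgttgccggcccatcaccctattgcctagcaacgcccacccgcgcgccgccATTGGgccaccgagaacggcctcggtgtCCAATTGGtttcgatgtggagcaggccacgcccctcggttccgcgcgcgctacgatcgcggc
*Dhcr7*: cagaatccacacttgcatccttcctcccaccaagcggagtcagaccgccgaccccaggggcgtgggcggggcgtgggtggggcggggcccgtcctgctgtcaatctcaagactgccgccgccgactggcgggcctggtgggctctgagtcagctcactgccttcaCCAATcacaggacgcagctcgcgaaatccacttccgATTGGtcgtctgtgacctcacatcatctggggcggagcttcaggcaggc

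The *Hmgcs1* stretch lies at chr13:119690101-119690350 on the + strand and holds 3 NF-Y boxes and 1 sterol regulatory element, which begins 137 bases before the start site. The *Mvk* stretch (chr5:114444019-114444268, + strand) holds 5 NF-Y boxes. The *Insig1* stretch (chr5:28071162-28071411, + strand) holds 1 NF-Y box and 1 E-box. The *Fasn* stretch (chr11:120824548-120824797, − strand) holds 3 NF-Y boxes, of which a pair on opposite strands overlap. The *Dhcr7* stretch (chr7:143829964-143830213, + strand) belongs to the downstream one of the gene's start sites in the table and holds 2 NF-Y boxes.

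An NF-Y box was present for 23 of the 26 genes (88.5%), while 41.1% of all 27025 genes in the promoter table had one. Counted by window, 24 of the 36 windows (66.7%) held the box, beside 37.4% of all 32851 windows. The genes without it were *Acaca*, *Acat2* and *Scap*, and 11 genes had 2 or more in 1 window. The E-box CACGTG, which is the same on both strands, was present for 5 of the 26 genes (19.2%, beside 8.09% of all genes), namely *Dhcr7*, *Hsd17b7*, *Insig1*, *Sc5d* and *Scap*. The sterol regulatory element as spelled here was matched for *Hmgcs1* alone (1 of 26, 3.85%, beside 1.44% of all genes). Sterol regulatory elements vary in sequence, so the absence of these letters from a window says nothing about whether SREBP bind there. The windows come from the C57BL/6J reference and not from FVB mice, and a match describes letters and not binding.

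**Figure D1:**
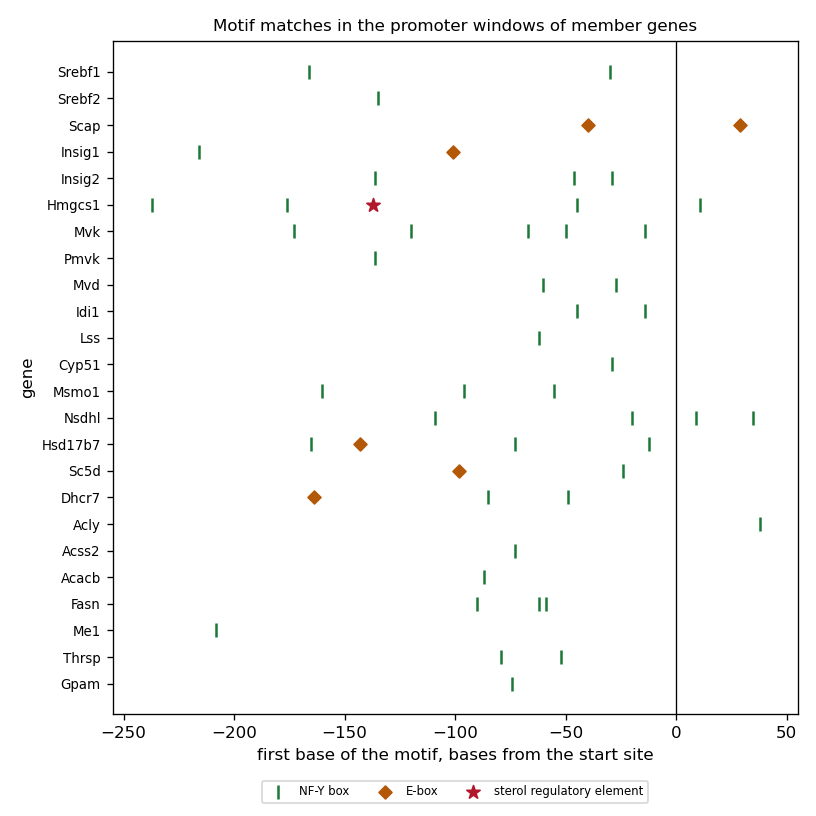
Positions of motif matches in the promoter windows of the 24 genes with any match, where the x axis gives the first base of the match in bases from the start site of its window (vertical line at 0), a match in overlapping windows of a gene is drawn for each window, and the marks give the motif. NF-Y boxes (short green bars) recur in 23 genes, E-boxes (diamonds) in 5 and the sterol regulatory element (star) in *Hmgcs1* only.

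Levels are given as CPM, counts scaled to a common library total, after TMM normalization. TMM scales each sample by a factor chosen on the assumption that most loci do not differ between samples. In the deposited table, the reads of a gene can be divided between a row that carries the symbol and an unnamed row of the same assembled locus, so a level is the sum of all rows of the locus unless a row is named. Total counts lay between 204539059 and 232148824, and 24061 loci passed the filter on low counts, all 30 members among them. Fold changes compare *fat-1* with WT, a value above 0 meaning more RNA in *fat-1*. The test was the quasi-likelihood test of edgeR, with *p*-values adjusted by the Benjamini–Hochberg method over all loci tested.

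The cell isolates differed in composition within both genotypes. Luminal and basal epithelial markers were present in all samples, and the summed luminal level of 9 markers was 3562, 831 and 1531 CPM in *fat-1* and 2892, 1709 and 874 CPM in WT. The 6 fibroblast markers summed to more than the luminal markers in 5 of the 6 samples, with 1551 to 6065 CPM in *fat-1* and 3332 to 5617 CPM in WT. The 8 immune markers summed to 722 to 1588 CPM in *fat-1* and 713 to 1673 CPM in WT, and the 5 endothelial markers to 183 to 227 CPM and 202 to 247 CPM. The locus of the immune marker *Cd79a* also holds *Arhgef1*. It added 278, 507 and 408 CPM in *fat-1* and 266, 302 and 521 CPM in WT to the immune sums. The *Cd79a* symbol row measured only 0.420 to 17.5 CPM, so how much of this was *Cd79a* is not known. Samples *fat-1* 1 and WT 1 had the highest epithelial levels, and *fat-1* 2 and WT 3 the lowest. In such bulk samples, fewer cells of a type and less RNA per cell cannot be told apart.

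None of the 30 genes passed the quasi-likelihood test of *fat-1* against WT. At an unadjusted *p*-value of 0.05, 0 of 30 passed, where 1.14% of all loci did, and 0 passed after adjustment (0.0% of all loci, with all adjusted *p*-values of the members at 1.00). DESeq2 put 1 of 30 at this unadjusted threshold (1.49% of all loci) and 0 passed after adjustment (0.0332% of all loci). The fitted log2 fold changes ran from −0.15 for *Mvk* to 0.22 for *Thrsp*, with 19 above 0 and 11 below, beside 50.6% of all loci above 0. Their median was 0.02, and the median over all loci was 0.00. The median size of the difference was 0.05 on the log2 scale, against 0.11 over all loci, and the median standard error was 0.18, against 0.26.

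The 95% intervals show how large a difference these samples leave possible. *Mvd* was set aside here, since its locus also counts another gene. For 21 of the other 29 genes the whole interval lay within 1.5-fold in either direction, which held for 37.3% of all loci. For 28 it lay within 2-fold (62.4% of all loci). The exception was *Gpam*, with an interval of −0.84 to 1.23 on the log2 scale. Apart from *Gpam*, the intervals reached beyond 1.5-fold for *Mvk*, *Fdft1*, *Cyp51*, *Sc5d*, *Stard4*, *Me1* and *Thrsp*.

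**Figure D2:**
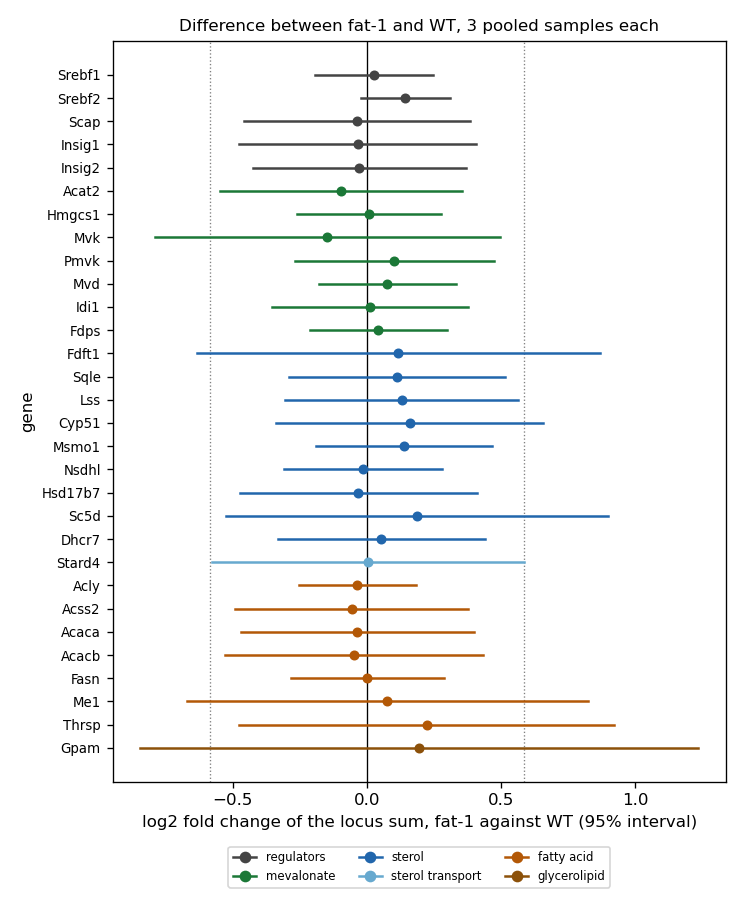
Log2 fold change of the locus sum for each of the 30 genes, *fat-1* against WT with 3 pooled samples each, with 95% intervals from edgeR's quasi-likelihood fit (horizontal bars), coloured by role. Dotted lines mark 1.5-fold in either direction. All intervals include 0, and that of *Srebf2* reaches from −0.02 to 0.31.

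Among the regulators, *Srebf1* was level between the genotypes. It measured 128, 119 and 137 CPM in *fat-1* and 129, 129 and 118 CPM in WT, and the difference was 0.03 ± 0.09 on the log2 scale (± SE, 95% interval −0.19 to 0.24). The lowest and the highest value of the 6 were thus a WT and a *fat-1* sample that differed by a factor of 1.16.

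*Srebf2* (chromosome 15, 82147181 to 82205379, GRCm38) was the 1 member whose genotypes did not overlap, which was the case for 4.15% of all loci. It measured 231, 226 and 229 CPM in *fat-1* and 200, 208 and 213 CPM in WT. All 3 *fat-1* samples were above all 3 WT samples, by a small amount. The log2 fold change was 0.14 ± 0.07 (SE), with an unadjusted *p*-value of 0.0792 by the quasi-likelihood test and 0.0215 by DESeq2, and an adjusted *p*-value of 1.00 by both. Without each sample in turn it stayed between 0.12 and 0.18.

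The rows of the *Srebf2* locus, described after their values were seen, differed from each other. The row with the symbol measured 221, 166 and 218 CPM in *fat-1* and 197, 207 and 211 CPM in WT. Samples *fat-1* 1 and 3 were above all WT samples in this row and *fat-1* 2 was below them, with a log2 fold change of −0.03 ± 0.14 (SE). The row without a symbol had 2497, 12964 and 2102 counts in *fat-1* and 570, 278 and 317 counts in WT. Every *fat-1* sample was higher there, *fat-1* 2 by far the most. For this row the fitted difference was 3.93 ± 0.86 (log2, SE), with an adjusted *p*-value of 1.00 by the quasi-likelihood test (unadjusted *p* = 0.00396) and of 0.000338 by DESeq2. The row held 4.42% to 26.7% of the locus in *fat-1* and 0.590% to 1.33% in WT. Which RNA it counts is not given in the table.

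The escort and anchor proteins did not separate by genotype. *Scap* measured 66.5, 70.8 and 96.3 CPM in *fat-1* and 72.5, 92.3 and 74.8 CPM in WT, a log2 fold change of −0.04 ± 0.17 (SE). *Insig1*, itself a known SREBP target whose RNA follows the activity of the pathway, measured 42.2, 58.9 and 54.3 CPM in *fat-1* and 42.3, 59.3 and 57.6 CPM in WT. Sample 1 of each genotype was the lowest, and the genotypes otherwise matched, with a log2 fold change of −0.03 ± 0.18. *Insig2*, whose RNA is less dependent on SREBP, measured 42.3, 33.0 and 37.1 CPM in *fat-1* and 45.0, 38.3 and 31.5 CPM in WT, with a log2 fold change of −0.03 ± 0.16. Its locus sum had the opposite order, with sample 1 of each genotype the highest. In the *Insig2* symbol row alone, WT 2 (23.5 CPM) was above WT 1 (22.4 CPM).

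**Figure D3:**
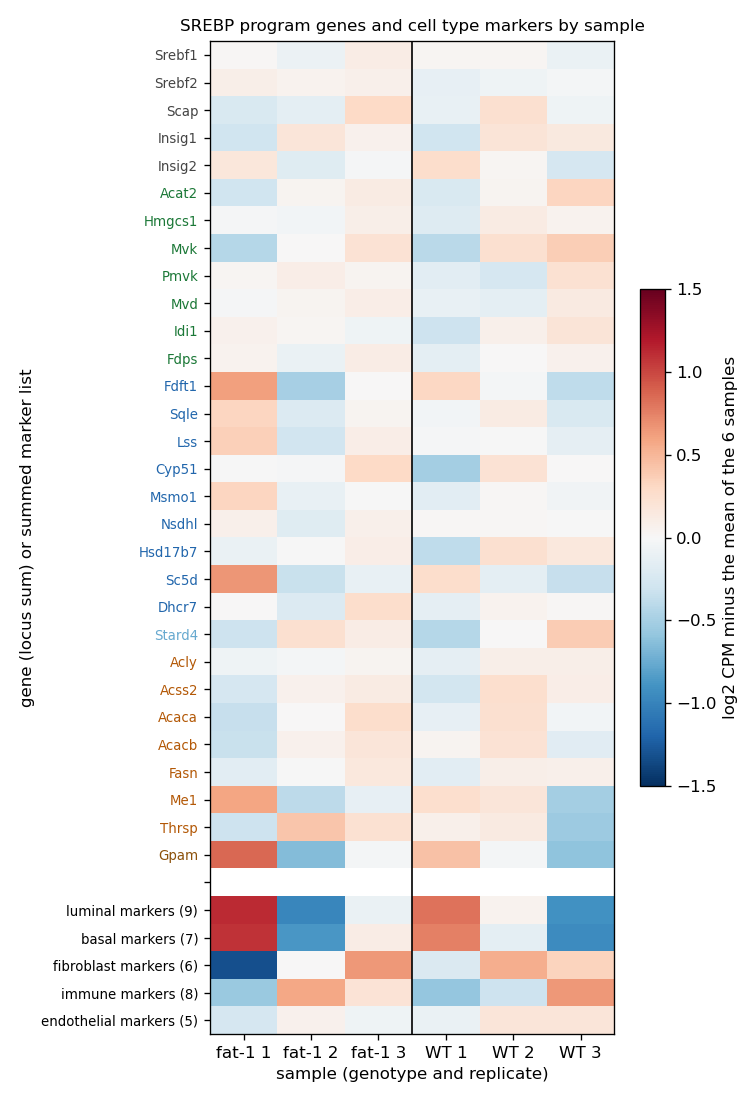
Level of each of the 30 genes in each of the 6 samples, with the summed levels of 5 marker lists beneath, as log2 CPM minus the mean of the 6 samples (colour scale, in log2 units). The vertical line divides *fat-1* from WT samples. The summed luminal, basal and fibroblast markers span a wider range than any gene, and columns *fat-1* 1 and WT 1 share high values of *Fdft1*, *Sc5d*, *Me1*, *Gpam* and the epithelial markers.

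The 7 genes of the mevalonate and isoprenoid steps had log2 fold changes of −0.15 to 0.10, with 5 above 0. *Hmgcs1*, the synthase that makes HMG-CoA, measured 69.9 ± 3.24 CPM (SD, n = 3) in *fat-1* and 69.5 ± 7.95 CPM in WT, a log2 fold change of 0.01 ± 0.11 (SE). *Acat2*, the cytosolic thiolase at the head of the pathway, measured 11.2, 14.0 and 14.9 CPM in *fat-1* and 11.7, 14.0 and 17.1 CPM in WT (log2 fold change −0.10 ± 0.19). *Mvk*, mevalonate kinase, measured 2.64, 3.56 and 4.13 CPM in *fat-1* and 2.67, 4.18 and 4.59 CPM in WT, with a log2 fold change of −0.15 ± 0.27, the lowest of the 30. For both genes, sample 1 of each genotype was the lowest.

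The later genes of this stretch behaved alike. *Pmvk*, the next kinase, measured 13.0 ± 0.326 CPM (SD, n = 3) in *fat-1* and 12.1 ± 2.25 CPM in WT. *Idi1*, the isopentenyl diphosphate isomerase, measured 22.4 ± 1.06 CPM and 22.2 ± 3.89 CPM. *Fdps*, which makes farnesyl diphosphate, measured 46.3 ± 3.45 CPM and 44.9 ± 3.34 CPM. In its annotation, 26.7% of the exon bases of *Fdps* are shared with *Gm43738* on the same strand, and its locus also holds *Rusc1*, so its level is less certain.

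*Mvd*, the decarboxylase between *Pmvk* and *Idi1*, could not be told apart from other RNA of its locus. The row with its symbol held 40, 50 and 51 counts in *fat-1* and 10, 23 and 71 counts in WT, which was 0.0705% to 0.440% of the locus. The row of the neighbouring gene *Cyba*, an NADPH oxidase subunit known from phagocytes, held 22.2% to 66.1%, and a row without a symbol held the rest. The locus sum (73.5 ± 3.06 CPM in *fat-1* and 69.7 ± 7.64 CPM in WT, SD, n = 3) therefore counts *Cyba* as well, how much of the unnamed row is *Mvd* is not given in the table, and *Mvd* was left out of the comparisons of level and of sample order, which cover 29 genes. Without the *Cyba* row, the log2 fold change of the locus was 0.64, with an unadjusted *p*-value of 0.0674 and an adjusted one of 1.00 by edgeR's quasi-likelihood test.

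The 9 genes of sterol synthesis from squalene onward had log2 fold changes of −0.03 to 0.19, and 7 of them were above 0 with a median of 0.12. None passed the test, the smallest unadjusted *p*-value being 0.347 for *Msmo1* by edgeR's quasi-likelihood test. Without *fat-1* 1, the log2 fold changes of *Sqle*, *Lss* and *Msmo1* fell from 0.11, 0.13 and 0.14 to −0.03, −0.02 and 0.01. Those of *Cyp51* and *Hsd17b7* rose from 0.16 and −0.03 to 0.22 and 0.03. *Msmo1*, the sterol C4-methyl oxidase, measured 61.5, 45.6 and 48.9 CPM in *fat-1* and 44.4, 49.8 and 47.6 CPM in WT. Sample *fat-1* 1 stood above the other samples, which overlapped, and the log2 fold change was 0.14 ± 0.14 (SE). *Cyp51*, the lanosterol demethylase, measured 21.2, 21.0 and 26.1 CPM in *fat-1* and 15.0, 24.7 and 21.4 CPM in WT. Its log2 fold change of 0.16 ± 0.21 went with a low value in WT 1.

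*Fdft1*, the squalene synthase, and *Sc5d*, the sterol C5-desaturase, spread further. *Fdft1* measured 48.1, 22.2 and 31.5 CPM in *fat-1* and 39.0, 30.8 and 24.2 CPM in WT, and *Sc5d* 65.4, 32.8 and 38.3 CPM in *fat-1* and 49.8, 37.5 and 32.6 CPM in WT. For both, sample 1 was the highest in each genotype and the genotypes overlapped throughout. The log2 fold changes were 0.12 ± 0.31 and 0.19 ± 0.29 (SE), and without *fat-1* 1 they were −0.21 and −0.16. In the annotation, 18.3% of the exon bases of *Fdft1* are shared with *Ctsb* on the opposite strand, and whether strand was used in the counting is not given in the sources used here.

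The remaining enzymes of sterol synthesis lay closer together. *Sqle*, squalene epoxidase and a rate-controlling step, measured 42.7 ± 7.84 CPM (SD, n = 3) in *fat-1* and 39.5 ± 4.84 CPM in WT. *Lss*, the cyclase that makes lanosterol, measured 13.6 ± 2.99 CPM and 12.4 ± 0.639 CPM. *Nsdhl*, a dehydrogenase of the C4 demethylation, measured 9.35 ± 0.921 CPM and 9.44 ± 0.0941 CPM. *Hsd17b7*, the ketosteroid reductase of that step, measured 16.8 ± 1.19 CPM and 17.1 ± 3.73 CPM. *Stard4*, a carrier of cholesterol between membranes, measured 14.8 ± 2.78 CPM and 14.8 ± 4.0 CPM, a difference of 0.01 ± 0.24 on the log2 scale (SE).

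*Dhcr7* (chromosome 7, 143823145 to 143848410, GRCm38), the reductase of the last step to cholesterol, was the member for which the choice of rows mattered most. The row with its symbol had 1467, 1292 and 57 counts in *fat-1* and 100, 29 and 24 counts in WT. The row without a symbol had 0, 0 and 1684 counts in *fat-1* and 1255, 1606 and 1420 counts in WT. Samples *fat-1* 1 and 2 thus held all counts of the locus in the first row, while *fat-1* 3 and all WT samples held 92.6% or more in the second. A count of 0 allows up to 0.204% of the locus in *fat-1* 1 and 0.232% in *fat-1* 2, which covers counting error only.

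Tested alone, the symbol row of *Dhcr7* had a log2 fold change of 4.22 ± 1.26 (SE). Its unadjusted *p*-value was 0.0161 and its adjusted *p*-value 1.00 by the quasi-likelihood test, and the adjusted *p*-value was 0.0282 by DESeq2 and 0.427 by edgeR's exact test. Its genotypes overlapped, since *fat-1* 3 lay below WT 1. The row without a symbol went the other way, with a log2 fold change of −1.30 ± 2.10. The sum of both rows was 6.95, 6.02 and 8.37 CPM in *fat-1* and 6.33, 7.22 and 7.02 CPM in WT, which gave a log2 fold change of 0.05 ± 0.16. On the level of the locus, the genotypes overlapped and the difference lay within a 95% interval of −0.33 to 0.44. By DESeq2, the symbol row had a log2 fold change of 4.23, higher in *fat-1*. The authors list *Dhcr7* by DESeq2 with a value of the same size and the opposite sign, lower in *fat-1*. Why the signs differ was not tested.

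Among the 30 symbol rows, *Dhcr7* was the 1 row at an unadjusted *p*-value of 0.05 by the quasi-likelihood test (2.21% of all 30683 rows tested) and the 1 row past the adjusted threshold of DESeq2 (0.303% of all rows). *Acaca*, named here after its values were seen, was the 1 symbol row whose genotypes did not overlap (5.26% of all rows). Acetyl-CoA carboxylase, its product, commits carbon to fatty acid synthesis. Its symbol row had 1114, 1103 and 3294 counts in *fat-1* and 823, 94 and 53 counts in WT, with a log2 fold change of 2.54 ± 1.14 (SE). The unadjusted *p*-value of this row was 0.0692 by the quasi-likelihood test and 0.0141 by DESeq2, which put 2 member rows at its unadjusted threshold (3.02% of all rows), and the adjusted one was 1.00 by both. The row without a symbol held most of the locus, 10150 to 13606 counts in *fat-1* and 12424 to 17996 counts in WT. The locus sum was 67.5 ± 13.9 CPM (SD, n = 3) in *fat-1* and 69.2 ± 9.44 CPM in WT, a log2 fold change of −0.04 ± 0.18 (SE).

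In all, the loci of 11 of the 30 genes had more than 1 row, and 47 rows made up the 30 loci. The share of the locus in the symbol row did not overlap between genotypes for 2 of the 11 genes, *Srebf2* and *Acaca*. Over all loci with more than 1 row, it did not overlap for 7.69% of 8479 symbol rows. For *Pmvk* it ran from 11.5% to 59.1% with no separation by genotype, and for *Insig2*, *Hmgcs1*, *Fdps* and *Hsd17b7* between 39.9% and 87.1%. The symbol row of *Me1* held 53.0% to 82.8% and that of *Srebf1* at least 97.9%.

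**Figure D4:**
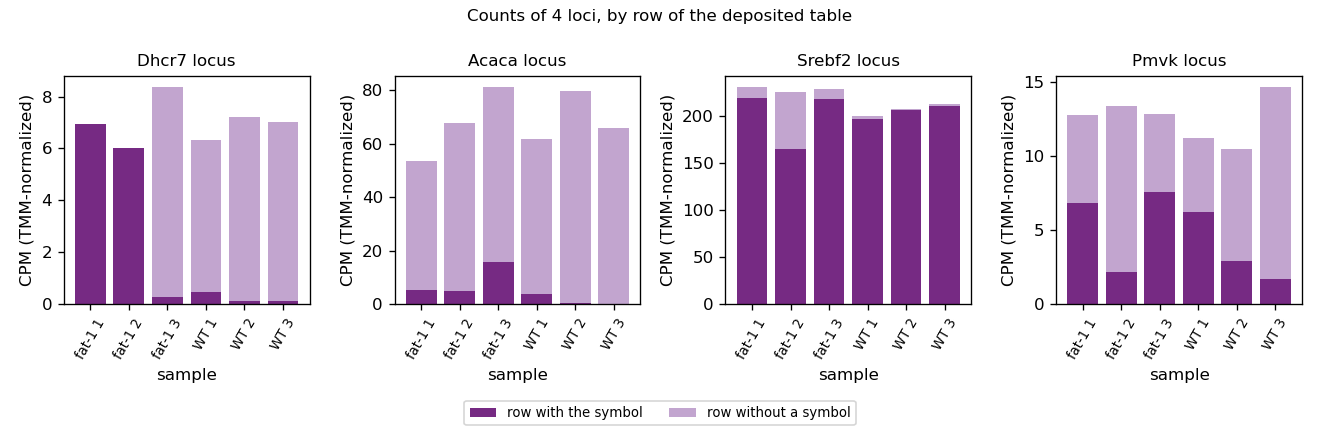
TMM-normalized CPM of the loci of *Dhcr7*, *Acaca*, *Srebf2* and *Pmvk* in each sample, stacked as the row with the symbol (dark) and the row without a symbol (light). The *Dhcr7* totals lie between 6.02 and 8.37 CPM, but the dark part makes up the whole bar in *fat-1* 1 and *fat-1* 2 and a small part elsewhere.

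Genes of fatty acid synthesis did not separate the genotypes by locus sum, with 3 of 7 log2 fold changes above 0 and a median of −0.04. Their 95% intervals were widest for *Me1* (−0.67 to 0.82) and *Thrsp* (−0.48 to 0.92). *Fasn*, the fatty acid synthase, measured 141, 157 and 177 CPM in *fat-1* and 141, 167 and 166 CPM in WT. Its log2 fold change was 0.00 ± 0.12 (SE), with a 95% interval of −0.28 to 0.29. *Acly*, which cleaves citrate to supply cytosolic acetyl-CoA, measured 205, 210 and 221 CPM in *fat-1* and 195, 228 and 228 CPM in WT (log2 fold change −0.04 ± 0.09). *Acss2*, which makes acetyl-CoA from acetate, measured 12.8 ± 1.74 CPM (SD, n = 3) in *fat-1* and 13.4 ± 2.40 CPM in WT. *Acacb*, the carboxylase of the mitochondrial surface, was low, at 1.95 to 2.77 CPM in *fat-1* and 2.17 to 2.85 CPM in WT.

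*Me1*, the malic enzyme that supplies NADPH, and *Gpam*, the acyltransferase that begins glycerolipid synthesis, were, with *Fdft1*, the most variable between samples. *Me1* measured 230.0, 116 and 140 CPM in *fat-1* and 181, 173 and 107 CPM in WT, and *Gpam* 30.8, 10.8 and 16.6 CPM in *fat-1* and 23.0, 16.7 and 11.1 CPM in WT. The highest sample of each genotype was its sample 1, and the lowest samples of both genotypes lay within 1 CPM of each other for *Gpam*. The log2 fold changes were 0.08 ± 0.31 for *Me1* and 0.20 ± 0.43 for *Gpam* (SE), and −0.25 and −0.29 without *fat-1* 1. The *Me1* row without a symbol had 22807 counts in *fat-1* 1 and 4485 to 9342 counts in the other samples. The symbol row of *Me1* measured 122, 93.4 and 114 CPM in *fat-1* and 150, 132 and 84.9 CPM in WT. In that row the highest sample was 1.76 times the lowest, and the log2 fold change was −0.16 ± 0.24 (SE). *Thrsp*, a regulator of lipogenesis known from fat and lactating gland, had the largest fitted difference of the 30 (0.22 ± 0.29) at a very low level. It had 101, 171 and 145 counts in *fat-1* and 134, 148 and 84 counts in WT, which overlapped.

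Adipocytes, which express many of these genes, left little RNA in the isolates. The summed level of the 8 adipocyte markers was 110 to 132 CPM in *fat-1* and 140 to 153 CPM in WT, nearly all of it from the loci of *Fabp4* and *Lipe*. The *Lipe* locus, at 23.7 to 34.6 CPM, also holds *Cxcl17*, and the *Lipe* symbol row measured 5.31 to 13.7 CPM. The other 6 markers summed to 0.882 to 2.41 CPM in *fat-1* and 1.06 to 2.5 CPM in WT, and *Lep* was at 0 in WT 3. *Fabp4*, which endothelial cells also express, was lower in *fat-1*, with a log2 fold change of −0.31 (unadjusted *p* = 0.0370 and adjusted *p* = 1.00 by the quasi-likelihood test). None of the 7 fatty acid genes separated the genotypes in this way.

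The variation between samples differed from gene to gene. Over the 29 genes measured, the highest sample exceeded the lowest by a median factor of 1.45, and by 1.72 over all loci. The factor ran from 1.15 for *Srebf2* to 2.15 for *Me1*, 2.17 for *Fdft1* and 2.84 for *Gpam*. Samples *fat-1* 1 and WT 1, which were highest in epithelial markers, were together the highest pair for 5 genes (*Insig2*, *Fdft1*, *Sc5d*, *Me1* and *Gpam*, 17.2%), as for 20.3% of all loci. They were together the lowest pair for 9 genes (*Insig1*, *Acat2*, *Mvk*, *Hsd17b7*, *Stard4*, *Acly*, *Acss2*, *Acaca* and *Fasn*, 31.0%), as for 18.9% of all loci. Of the 16 luminal and basal markers, 14 had these samples as the highest pair, and all 8 immune markers had them as the lowest pair. These orders are of locus sums, which can include rows without a symbol and, for *Cd79a*, *Arhgef1*. In symbol rows alone, the highest pair was WT 1 and WT 2 for *Me1* and *fat-1* 1 and WT 2 for *Insig2*. For *Hsd17b7*, only WT 2 was above *fat-1* 1, and for *Acaca* the lowest pair was WT 2 and WT 3. Of the epithelial marker rows, the highest sample was *fat-1* 3 for *Cdh1*, WT 2 for *Foxa1* (3.42 CPM) and WT 3 for *Oxtr* (0.699 CPM). The part of cell composition in the levels of these genes was not tested.

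By single samples, *fat-1* 1 was the highest for 9 of the 29 genes and the lowest for 7, and *fat-1* 3 was the highest for 7 and the lowest for 0. WT 1 was the highest for 1 and the lowest for 10.

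Compared per kilobase of exon, the genes covered a wide range of levels. The means over the 6 samples were highest for *Me1* (41.0 ± 12.0 CPM per kilobase, SD, n = 6) and *Acly* (40.6 ± 2.5), which did not differ beyond their spread. *Srebf2* followed at 30.3, *Srebf1* at 22.5, *Insig1* at 17.0, *Hmgcs1* at 15.2 and *Fasn* at 14.5 CPM per kilobase. Of the 9 sterol enzymes, 7 lay between 3.29 for *Nsdhl* and 8.78 for *Sc5d*. *Mvk* (1.36), *Acss2* (1.29), *Lss* (1.20) and *Dhcr7* (1.20) were close to one another, and *Thrsp* (0.279) and *Acacb* (0.257) were lowest. Exon length was taken over all annotated exons of a gene, so a gene with many alternative exons appears lower. Rows without a symbol count in these levels, and the symbol row of *Me1* held 53.0% to 82.8% of its locus.

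Ratios within a sample compare the paired genes of the pathway. On the per-kilobase scale, *Srebf2* was 1.21 to 1.49 times *Srebf1* in every sample, with 1.41 ± 0.0913 (SD, n = 3) in *fat-1* and 1.30 ± 0.105 in WT. *Acaca* was 13.8 to 17.1 times *Acacb*, with 15.6 ± 0.827 in *fat-1* and 15.6 ± 1.64 in WT. The ratio of *Insig1* to *Insig2* was less steady, at 1.12, 2.0 and 1.64 in *fat-1* and 1.06, 1.74 and 2.06 in WT. It was lowest in sample 1 of each genotype, and for all 3 ratios the genotypes overlapped. These ratios are of locus sums. The symbol row held only 0.392% to 19.5% of the *Acaca* locus and 49.8% to 64.3% of the *Insig2* locus, and which RNA the rows without a symbol count is not given.

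**Figure D5:**
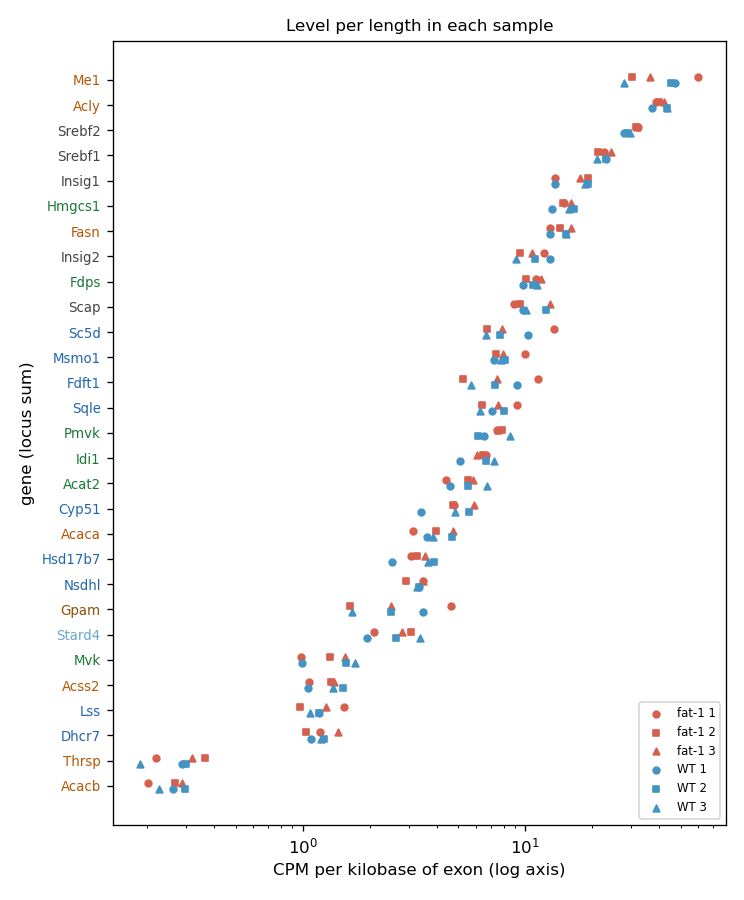
Level of 29 genes (without *Mvd*) in each sample as CPM per kilobase of exon, on a log axis, ordered by the mean of the 6 samples. Colours give the genotype and shapes the replicate number. Points of both genotypes overlap for all genes but *Srebf2*, and the genes range from 0.257 (*Acacb*) to 41.0 (*Me1*) CPM per kilobase on average.

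Other genes of the pathway gave the same picture. Of 32 further genes, chosen as the processing machinery of SREBP, other targets, and sterol sensing and export, 0 passed the unadjusted threshold of 0.05 for the locus sum by the quasi-likelihood test (1.14% of all loci), with 14 log2 fold changes above 0 and 18 below and a median of −0.01. Some of these sums also count other genes. The symbol row of *Nr1h3* measured 0.374 to 1.60 CPM in a locus of 55.8 to 76.9 CPM that also holds *Madd*. That of *Tm7sf2* measured 2.82 to 3.89 CPM in a locus of 52.6 to 63.3 CPM that also holds *Vps51* and *Zfpl1*. Among 6 genes of SREBP cleavage and degradation, *Rnf139*, a ubiquitin ligase, had a log2 fold change of 0.05 and an unadjusted *p*-value of 0.619. The *Rnf139* locus also holds *Ndufb9*, and its symbol row alone had a log2 fold change of 0.17. Among 18 other targets, *Fads1*, a PUFA desaturase, had a log2 fold change of −0.29 and an unadjusted *p*-value of 0.278. Among 8 genes of sterol sensing and export, the smallest *p*-values were those of *Soat1*, which esterifies cholesterol, and *Abcg1*, a sterol exporter. Their log2 fold changes were −0.17 and 0.16, with unadjusted *p*-values of 0.282 and 0.333 by the quasi-likelihood test. The *Soat1* symbol row alone had a log2 fold change of 0.37 ± 1.09 (SE). That row measured 1.83 CPM in WT 1 and 52.7 to 79.5 CPM in the other samples. All adjusted *p*-values of these genes were 1.00.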

How the data were processed

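Paired-end reads were mapped by the authors with HISAT2 (build GRCm38), StringTie served for assembly and quantification, and the authors deposited 1 table of estimated counts, as whole numbers without normalization. Strand use, the annotation and the StringTie version are not given in the sources used here. Besides 2 to 3 mice for a sample, the methods also give 6 to 8 mice pooled for an analysis. The table has 61880 rows and 53912 loci, and all value columns belonged to a sample.

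The members and gene lists were chosen with earlier results of these data known. Rows of the same locus number were summed. Locus sums (24061) and single rows (30683) that passed filterByExpr entered the quasi-likelihood test in edgeR 4.0.16 (R 4.3.3) after TMM normalization, with genotype as the sole term and a Benjamini–Hochberg threshold of 0.05. Standard errors are fold changes (log2) over the square root of F. DESeq2 1.42.0, the exact test and other normalizations, filters and designs were alternatives. The script was tested on simulated data. Positions and exon lengths are from GENCODE M21 for GRCm38, matched by symbol. Promoters are from RefSeq (GRCm38.p6).

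Values in every sample are given for the 5 regulators, the 3 genes with the smallest *p*-value in each direction, the 3 with the largest fold change, the 3 with the largest spread, and genes whose symbol row passed. Some genes of the further pathway lists are not reported here. Other values were added to describe the remaining genes. Depth was 204539059 counts a sample or more, and the locus of *Thrsp* had as few as 84 counts in a sample.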

Additional observations from a re-analysis of the deposited data

How the results depend on the processing

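For locus sums, 0 members passed the adjusted threshold in every alternative run, and DESeq2 alone put 1 member (*Srebf2*) at an unadjusted *p*-value of 0.05. Over all loci, the count past the adjusted threshold was 0 by edgeR's quasi-likelihood test (274 at the unadjusted threshold), 8 by DESeq2, 6 by the exact test and 0 to 1 when each sample was left out, the 1 being without WT 1. Fitted values near 0 changed sign in 51 of 450 alternative values of the 30 genes. Without *fat-1* 1, the log2 fold change was −0.21 for *Fdft1*, −0.16 for *Sc5d*, −0.25 for *Me1* and −0.29 for *Gpam*, and the cause was not tested. The highest values when a sample was left out were 0.35, 0.27 and 0.48 for *Fdft1*, *Me1* and *Gpam* (without *fat-1* 2) and 0.38 for *Sc5d* (without WT 1).

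For single rows, 0 rows (678 at the unadjusted threshold), 93 rows by DESeq2, 31 by the exact test and 0 to 2 without each sample passed the adjusted threshold. Among the 30 symbol rows, 1 (*Dhcr7*) was at an unadjusted *p*-value of 0.05, and 2 (*Dhcr7* and *Acaca*) by DESeq2, by the exact test, with the epithelial marker level as a term and without WT 1. Without WT 2 the number was 0, and without WT 3 the 1 row was that of *Mvd*, so that the range was 0 to 2. DESeq2 gave 1 member row (*Dhcr7*) past the adjusted threshold. The *Dhcr7* row without a symbol, an alternative chosen after the data were seen, gave −1.30. The number of members whose symbol row share did not overlap was 2, and 2 to 4 without each sample, with 4 without *fat-1* 3. Over all loci with more than 1 row, 7.69% of symbol rows did not overlap, and 16% to 17.5% when a sample was left out (16.8% without *fat-1* 3), since fewer samples overlap less. The median factor between the highest and the lowest sample was 1.44 with total counts and 1.40 to 1.44 without each sample.

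Whether the replicate numbers pair the samples cannot be told. The deviations of same-numbered samples correlated at 0.80, −0.16 and 0.13, and those of *fat-1* 2 and WT 3 at 0.79. With 3 samples of each genotype, such correlations cannot show whether samples shared an isolation day or batch. With a replicate block, 0 loci and 0 rows passed (376 and 784 at the unadjusted threshold), and the member counts were 0 for locus sums and 1 for rows.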
